A study of Fragaria x ananassa with 6 samples.

Results

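The genes described here encode the late flavonoid pathway of strawberry, from the flavanone hydroxylase to the enzymes that decorate anthocyanins, together with a MYB regulator. They were FaFHT, FaFLS, FaDFR1, FaDFR1C, FaANS, FaUFGT, Famalonyltransf and Famyb10, taken by the symbol on the array. The rule named no measured value, but the genes were chosen with earlier results of these data known. The genes were 8 of the 35117 features on the array, and 7 of the 8 gave enough signal to be among the 23386 features tested. Famyb10 was the exception. FaANS was read by 2 probes and each other gene by 1 probe. Probe sequences were not available, so whether the FaDFR1 and FaDFR1C probes read separate transcripts was not checked.

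Floral bud RNA of the cultivated strawberry (Fragaria × ananassa) was hybridised to 3 arrays, each holding 1 FaPRE1-OX sample and 1 control sample labelled with opposite dyes. FaPRE1-OX buds came from plants transformed through Agrobacterium tumefaciens AGL0 with the vector pK7WG2-FaPRE1 and were described as elongated (n = 3). Control buds came from plants transformed with the empty vector and were described as normal (n = 3). All plants were raised in a growth chamber and then in a greenhouse. The promoter driving the transgene, the cultivar and the number of transgenic lines were not given in the labels. The RNA came from independent buds, but whether replicates were separate lines was not stated, so a p-value here reflects no more than the scatter of these samples, which could be technical. FaPRE1-OX RNA was in Cy3 on arrays 1 and 3 and in Cy5 on array 2, and the control RNA had the other dye. Most features bore only gene model identifiers, so markers of floral bud tissue were not checked.

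Flavonoids share a common route that forks late. Flavanone hydroxylase (FaFHT) makes dihydroflavonols, which flavonol synthase (FaFLS) turns into flavonols and dihydroflavonol reductase (FaDFR1, FaDFR1C) turns into leucoanthocyanidins. Anthocyanidin synthase (FaANS) oxidises these to the coloured anthocyanidins, a glucosyltransferase (FaUFGT) attaches glucose to them, and a malonyltransferase can add a malonyl group to that sugar. MYB10 is a transcription factor known in strawberry fruit and in apple as an activator of anthocyanin genes.

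Between 57.7% and 67.2% of spots were well above background in FaPRE1-OX samples and between 62.8% and 67.4% in control samples, and no spot was saturated (0 flagged). FaPRE1 itself had log2 signals of 8.59, 8.74 and 8.04 in FaPRE1-OX samples 1, 2 and 3, against 6.09, 6.64 and 6.37 in control samples 1, 2 and 3. Both of its spots were well above background in every FaPRE1-OX sample, but a spot was so in only 1 of the 3 control samples, so the control values lie at or near background and give no exact fold. The ratios of all tested features correlated more closely between arrays 1 and 2 (Pearson's r = 0.963 across features) than between arrays 1 and 3 (0.653) or 2 and 3 (0.616), and features are not independent replicates.

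Both dihydroflavonol reductase genes were higher in every FaPRE1-OX sample than in any control sample, FaUFGT was slightly higher, and FaFLS and Famalonyltransf were lower. FaFHT and FaANS, the brightest of these probes, overlapped between the groups. With the dye as a term in the limma fit, 0 of the 7 tested genes passed an adjusted p of 0.05, as did 0% of all features tested. At an unadjusted p under 0.05, 2 of the 7 were higher (FaDFR1 and FaDFR1C), where 12.6% of all features were, and 1 was lower (Famalonyltransf), where 16.3% were. Without the dye term, FaDFR1 and FaDFR1C passed the adjusted test as higher (background 9.8%) and 0 of the 7 as lower (background 12.8%). With array 3 left out, in a fit with no dye term, 5 of the 7 passed, as did 13945 of the 23386 features, whereas with array 1 or array 2 left out 0 of either passed. Each such fit rests on 2 arrays, and with array 2 left out group and dye coincide. The median fitted difference was 0.02 on the log2 scale over the 7 genes, with 4 above zero, and -0.02 over all 23386 features, with 11170 above zero.

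**Figure D1:**
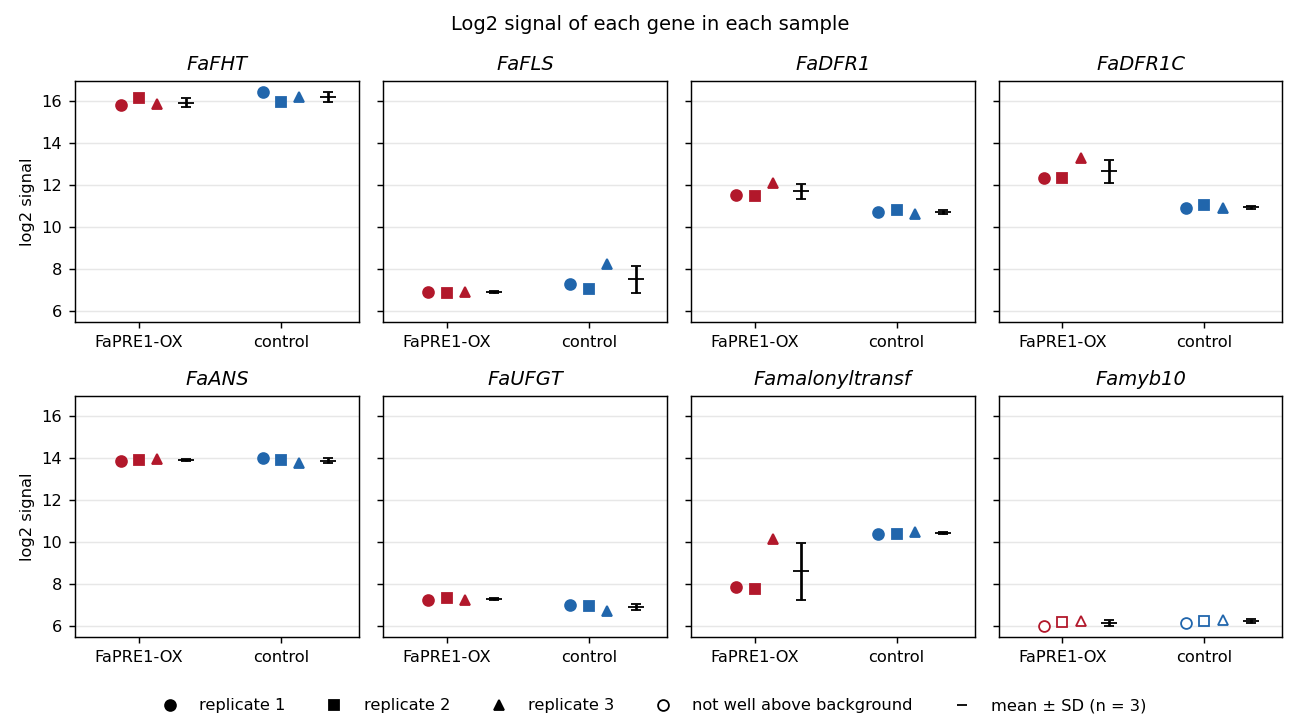
Log2 signal after normalization (y axis) of the 8 genes in the 3 FaPRE1-OX samples (left) and the 3 control samples (right), with the mean and SD beside them and open symbols where the spots were not well above background. The groups are apart for FaFLS, FaDFR1, FaDFR1C, FaUFGT and Famalonyltransf, and FaPRE1-OX 3 lies well above the other FaPRE1-OX samples for Famalonyltransf.

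Levels are given below as log2 signal after normalization, and the percentile is the share of all features that were dimmer in the same sample. Signals of different probes do not give the relative amounts of their transcripts. Each total is that of whole buds, in which fewer cells of a type and less RNA per cell cannot be told apart.

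FaFHT had a log2 signal of 15.80, 16.15 and 15.85 in FaPRE1-OX samples 1, 2 and 3, against 16.43, 15.95 and 16.18 in control samples 1, 2 and 3. The groups overlapped. The gene was at percentile 99.8 to 99.9 in both groups, with only 37 to 61 features brighter in FaPRE1-OX samples and 39 to 65 in control samples. On arrays 1, 2 and 3 the log2 ratio of FaPRE1-OX over control was -0.64, 0.20 and -0.34. It turned positive on array 2, the only array with the dyes exchanged. Dye and the samples of that array therefore cannot be told apart. The dye coefficient of 0.34 was above the 90th percentile of absolute dye coefficients over all tested features (0.25), and the fitted difference was -0.15 ± 0.13 on the log2 scale (SE, n = 3 arrays; 95% interval -0.54 to 0.25; limma adjusted p = 0.516).

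FaFLS, at the branch toward flavonols, was dim in all samples, at a log2 signal of 6.90, 6.83 and 6.90 in FaPRE1-OX samples 1, 2 and 3, against 7.27, 7.01 and 8.21 in control samples 1, 2 and 3. Every FaPRE1-OX sample was below every control sample, although the gap between 6.90 in FaPRE1-OX 3 and 7.01 in control 2 was small. The FaPRE1-OX values lay close together (SD 0.04), and control 3 stood apart from the other controls (SD 0.63). The scanner's processed signals, which carry no offset, were less even in FaPRE1-OX samples, at 113, 98.4 and 77.7. In control samples 1, 2 and 3 they were 178, 146 and 356. The raw signal was only 1.56 to 2.02 times its local background in FaPRE1-OX samples and 2.05 to 4.01 times in control samples, although both spots were well above background in all 6 samples. The percentile was 46.2 to 47.6 in FaPRE1-OX samples and 48.8 to 66.0 in control samples.

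The FaFLS ratios were -0.37, -0.18 and -1.31 on arrays 1, 2 and 3, so that the third array held most of the difference. The fitted difference was -0.51 ± 0.25 (95% interval -1.26 to 0.25; limma adjusted p = 0.284). In fits with no dye term, on 2 arrays each, it was -0.74 without array 1 (adjusted p = 0.342), -0.84 without array 2 (0.238) and -0.27 without array 3 (0.0153). Without array 2 all FaPRE1-OX RNA was in Cy3, so that value cannot be told apart from a dye effect. The dye coefficient, 0.33, was also above that 90th percentile. It cannot be told apart from scatter between arrays. Arrays 1 and 2, with opposite dyes, gave -0.37 and -0.18, whereas array 3, with the dyes of array 1, gave -1.31.

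FaDFR1 encodes the reductase that takes dihydroflavonols toward anthocyanins and proanthocyanidins. It measured 11.50, 11.49 and 12.11 in FaPRE1-OX samples 1, 2 and 3, against 10.71, 10.80 and 10.63 in control samples 1, 2 and 3. All FaPRE1-OX samples lay above all controls, with the highest value in FaPRE1-OX 3. The percentile was 93.6 to 95.6 in FaPRE1-OX samples and 88.7 to 89.3 in control samples. The ratios were 0.78, 0.69 and 1.47, at percentiles 94.3, 93.1 and 99.3 of the ratios of all tested features. This was 1.88-fold in the fit (log2 difference 0.91 ± 0.20, 95% interval 0.31 to 1.50; limma adjusted p = 0.109 with the dye term). Without the dye term the difference was 0.98 ± 0.19, with an adjusted p of 0.032.

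FaDFR1C, the other dihydroflavonol reductase probe, had the largest positive difference among the 7 tested genes. It reached 12.35, 12.32 and 13.27 in FaPRE1-OX samples 1, 2 and 3, against 10.88, 11.03 and 10.89 in control samples 1, 2 and 3. The groups were far apart, the controls had an SD of 0.08, and FaPRE1-OX 3 was again the highest. The percentile was 96.5 to 98.0 in FaPRE1-OX samples and 89.8 to 90.5 in control samples.

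The FaDFR1C ratios were 1.46, 1.30 and 2.38 on arrays 1, 2 and 3, at percentiles 98.8, 98.5 and 99.9 of all ratios. It was the only one of the 7 genes at least 2-fold higher on all 3 arrays, where 0.924% of all features were, and 0 of the 7 were at least 2-fold lower on all 3, where 3.19% of all features were. The fitted difference was 3.05-fold (log2 1.61 ± 0.24, 95% interval 0.87 to 2.35), and limma gave an adjusted p of 0.0791. Dropping the dye term gave 1.71 ± 0.24 and an adjusted p of 0.0183. Its duplicate spots differed by 0.01 to 0.16 in log2 ratio.

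**Figure D2:**
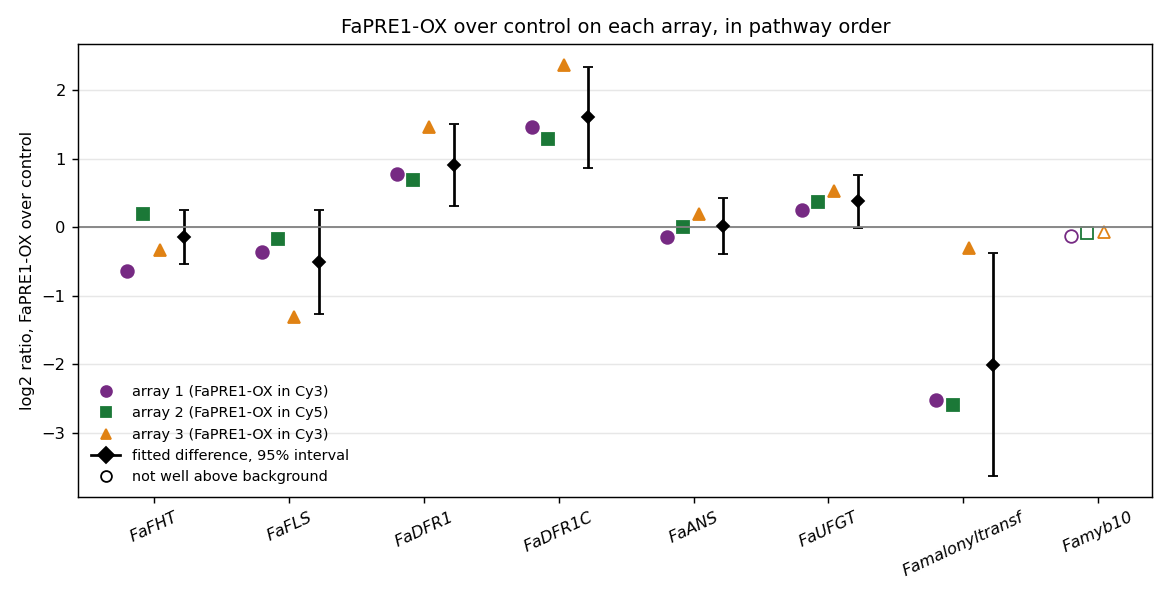
Log2 ratio of FaPRE1-OX over control (y axis) on arrays 1, 2 and 3 for each gene in pathway order, with the fitted difference and its 95% interval in black and open symbols where the spots were not well above background. FaDFR1 and FaDFR1C are above zero on all 3 arrays and highest on array 3, and the Famalonyltransf ratio on array 3 lies near zero.

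FaANS, which acts directly after the reductases, was bright, with close values in both groups. The FaPRE1-OX samples 1, 2 and 3 read 13.85, 13.90 and 13.93, against 13.99, 13.89 and 13.73 in control samples 1, 2 and 3. The groups overlapped, at percentile 98.7 to 98.8 in FaPRE1-OX samples and 98.5 to 98.6 in control samples. The fitted difference was 0.02 ± 0.14 (95% interval -0.39 to 0.43; limma adjusted p = 0.935). The 2 probes disagreed in sign on arrays 1 and 2. One gave 0.01, -0.11 and 0.27 on arrays 1, 2 and 3, and the other gave -0.28, 0.13 and 0.12.

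FaUFGT, the glucosyltransferase, was dim, at a log2 signal of 7.22, 7.31 and 7.23 in FaPRE1-OX samples 1, 2 and 3, against 6.97, 6.95 and 6.70 in control samples 1, 2 and 3. The groups did not overlap, although the gap was small. Both spots were well above background in all 6 samples, at 2.83 to 3.01 times the local background in FaPRE1-OX samples and 1.5 to 2.2 times in control samples. The percentile was 52.9 to 54.6 in FaPRE1-OX samples and 42.2 to 48.1 in control samples.

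The FaUFGT ratios were 0.25, 0.37 and 0.54, above zero on all 3 arrays at percentiles 74.6, 81.6 and 90.6 of all ratios. The fitted difference was 0.38 ± 0.13 (95% interval -0.01 to 0.77; limma adjusted p = 0.181, and 0.0551 without the dye term). From the scanner's own processed signals, which carry no offset, the same spots gave ratios of 0.60, 1.17 and 1.41.

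Famalonyltransf, annotated as a malonyltransferase, had the largest negative difference of the 7 genes and the widest spread. It measured 7.85, 7.75 and 10.14 in FaPRE1-OX samples 1, 2 and 3, against 10.38, 10.36 and 10.45 in control samples 1, 2 and 3. FaPRE1-OX 1 and 2 were far below the controls, whereas FaPRE1-OX 3 came close to them. Raw signals were 186 (Cy3), 334 (Cy5) and 740 (Cy3) in FaPRE1-OX samples 1, 2 and 3. In control samples 1, 2 and 3 they were 2033 (Cy5), 897 (Cy3) and 1534 (Cy5). Cy5 signals ran higher than Cy3 signals over all spots, so these raw values do not give the group difference. The SD was 1.35 in FaPRE1-OX samples and 0.05 in control samples. The gene was at percentile 62.3, 61.0 and 85.7 in FaPRE1-OX samples 1, 2 and 3, and at 86.4 to 87.6 in control samples.

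The ratios of Famalonyltransf were -2.53, -2.60 and -0.30 on arrays 1, 2 and 3. The first pair were in the lowest 2% of all ratios (percentiles 1.76 and 1.60), and the last was at percentile 21.5. The fitted difference was 4.02-fold lower (log2 -2.01 ± 0.54, 95% interval -3.64 to -0.38; limma adjusted p = 0.137), and without the dye term it was -1.81 ± 0.52 with an adjusted p of 0.0754. That fit gave -1.45 without array 1 (adjusted p = 0.326), -1.41 without array 2 (0.303) and -2.56 without array 3 (3.59e-11). Each of these rests on 2 arrays, and without array 2 group and dye coincide. The adjusted p without array 3 rests mainly on variance shared over all features. Duplicate spots of the probe, which share RNA, labelling and hybridisation, differed by 0.01 to 0.13 in log2 ratio. FaPRE1 was also lowest among the FaPRE1-OX samples in FaPRE1-OX 3, while both reductases were highest there. The part of this in the result was not tested.

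Famyb10 was not well above background on either spot in any of the 6 samples. Its measured log2 signal was 5.96, 6.15 and 6.21 in FaPRE1-OX samples 1, 2 and 3, against 6.10, 6.24 and 6.28 in control samples 1, 2 and 3. These values overlapped and stood at 0.906 to 1.27 times the local background in FaPRE1-OX samples and 0.835 to 1.36 times in control samples, so no fold is given. The transcript was not detectable with this probe, and no level can be read for it in either group.

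Counted over the 7 tested genes, 3 had every FaPRE1-OX sample above every control sample (FaDFR1, FaDFR1C and FaUFGT), where 20.6% of all features did. Another 2 had every FaPRE1-OX sample below (FaFLS and Famalonyltransf), where 25.2% of all features did. The same genes were higher on all 3 arrays (background 28.4%) and lower on all 3 arrays (background 32.2%).

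**Figure D3:**
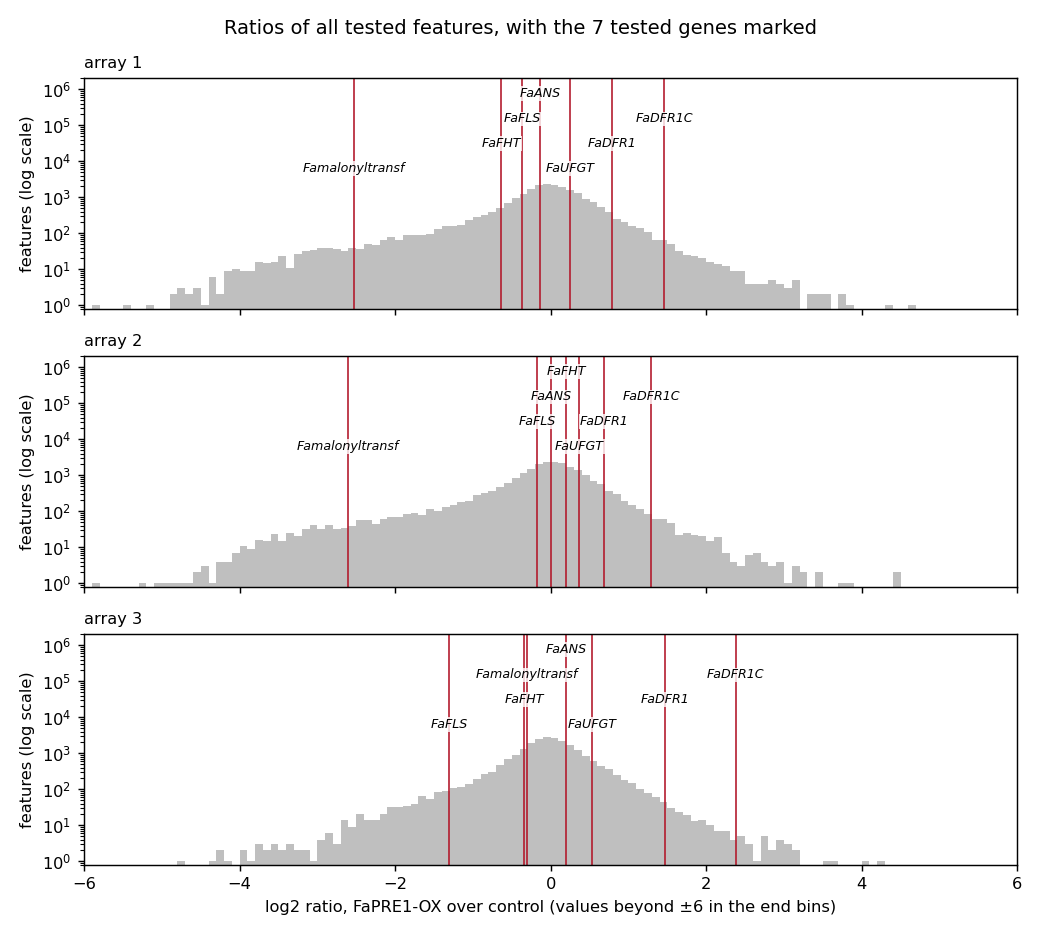
Number of tested features (y axis, log scale) by log2 ratio of FaPRE1-OX over control (x axis) on each array, with lines at the 7 tested genes. FaDFR1C lies in the upper tail on all 3 arrays, whereas Famalonyltransf lies in the lower tail on arrays 1 and 2 but not on array 3.

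Differences between the ratios of successive steps were then taken on each array, with no correction for dye. With 3 arrays an exact two-sided sign-flip test cannot go below p = 0.25, so they are given as values. At the fork, the FaDFR1C ratio exceeded that of FaFLS by 1.83, 1.47 and 3.69 on arrays 1, 2 and 3 (mean 2.33 ± 1.19 SD). The FaDFR1 ratio exceeded that of FaFLS by 1.15, 0.86 and 2.78 (1.60 ± 1.03). On every array, therefore, the reductases stood higher than the flavonol synthase, most of all on array 3. The scanner's processed signals gave 2.30, 2.13 and 4.59 for FaDFR1C over FaFLS.

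From FaFHT to FaDFR1C the step was 2.10, 1.10 and 2.72 on arrays 1, 2 and 3 (1.97 ± 0.82), and from FaDFR1C to FaANS it was -1.60, -1.29 and -2.18 (-1.69 ± 0.45). The reductase step thus stood above the steps on both sides of it on all 3 arrays. Its rise from FaFHT was smallest on array 2, where the dyes were exchanged. The dye coefficients were 0.34 for FaFHT and -0.31 for FaDFR1C. With the dyes exchanged only on array 2, a dye effect on this rise cannot be told apart from the samples of that array. FaDFR1C had ratios of 1.46 and 1.30 on arrays 1 and 2, which had opposite dyes. Its ratio was 2.38 on array 3, which had the dyes of array 1. The reductases also differed from each other, with FaDFR1C above FaDFR1 by 0.68, 0.61 and 0.91 (0.73 ± 0.16). The step from FaANS to FaUFGT was 0.38, 0.36 and 0.34 (0.36 ± 0.02). From the processed signals it was larger and less even, at 0.67, 1.11 and 1.15 (0.98 ± 0.27). The step from FaUFGT to Famalonyltransf was -2.77, -2.97 and -0.84 (-2.20 ± 1.18), negative on each array and smallest in size on the third, and -3.42, -4.08 and -1.70 from the processed signals.

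Genes of the neighbouring branch and of transport were listed as FaLAR, FaANR1, FaANR2, FaGST1, FaMATE and FaTT12. Of the 6, 5 were tested, and 0 of 5 passed the adjusted test with the dye term, while 3 of 5 had an unadjusted p under 0.05, 1 higher (12.6% over all features) and 2 lower (16.3%). Without the term, 1 was higher, where 9.8% of all features were, and 1 was lower, where 12.8% were. The higher one was FaLAR, leucoanthocyanidin reductase of the proanthocyanidin branch, with ratios of 0.40, 0.38 and 0.53 (adjusted p = 0.0325 without and 0.139 with the dye term). The lower one was FaGST1, a glutathione transferase symbol, which was not well above background in any FaPRE1-OX sample. It passed the filter on low values only through the 3 control samples. In each of these, only 2 of its 4 spots were well above background. The measured levels differed 1.4-fold (adjusted p = 0.0397 without and 0.144 with the dye term). The FaPRE1-OX levels lie at or near background, so this gives no exact fold. FaGST1 was also 1 of the 2 lower at an unadjusted p under 0.05. A feature let in only by its brighter group can hardly count the other way, so these tests do not decide whether FaGST1 was lower.

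FaMATE and FaTT12, named after the MATE transporters, of which TT12 carries flavonoids into the vacuole in Arabidopsis, had fitted differences of -0.45 ± 0.14 and -0.12 ± 0.19. FaANR1, anthocyanidin reductase, had 0.18 ± 0.15, with ratios of 0.06, 0.52 and -0.37 that changed sign on array 3. FaANR2 was not tested because too few of its spots were well above background.

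**Figure D4:**
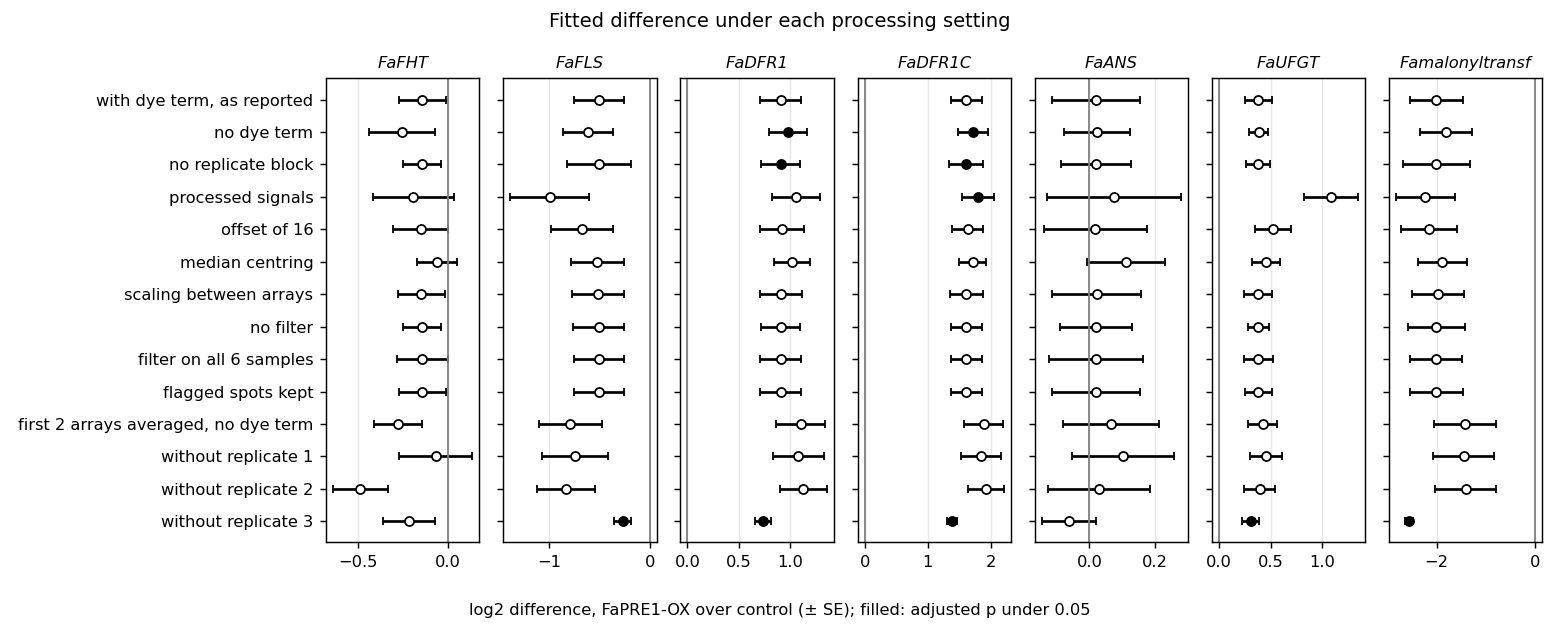
Fitted log2 difference of FaPRE1-OX over control (x axis, ± SE, scaled separately for each gene) under each processing setting (rows), with filled symbols where the adjusted p was under 0.05. FaDFR1 and FaDFR1C are above zero in every row, and FaFLS and Famalonyltransf are below zero in every row.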

How the data were processed

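RNA of 3 FaPRE1-OX and 3 control floral bud samples had been hybridised in pairs on 3 Agilent 60-mer arrays. Groups, replicate numbers and dyes came from the labels. FaPRE1 was taken as the transgene from the source names, although PRE3 stands in the titles of the FaPRE1-OX samples.

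The authors deposited spot intensity, background intensity and processed signal (linear intensity) with the scanner's quality flags, extracted with Agilent Feature Extraction 10.7 per the labels. Each array held 62976 spots, 61657 of them not controls, and precision is limited by how few arrays there were. Median signal over all spots was 92.5 to 168.5 in FaPRE1-OX samples and 95.0 to 173.5 in control samples.

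Using limma 3.58.1 (R 4.3.3, statmod 1.5.0), the median spot intensity was background-corrected (normexp, offset 50) and normalized by loess within arrays, which pulls the ratio of dim spots toward zero through the offset. Flagged outlier spots were dropped, and the mean was taken over spots, then over probes of a feature. A feature was tested if 3 or more of the 6 samples had a spot well above background. Ratios of FaPRE1-OX over control were fitted with a dye term (1 residual degree of freedom) and, as an alternative, without it (2), two-sided, with Benjamini-Hochberg adjustment over all 23386 tested features and a threshold of 0.05. Levels are log2 signals after between-array Aquantile normalization. The fits were also run on simulated ratios drawn from the variances and dye coefficients fitted to these data. That checks the calculation only and cannot show whether the fits hold for these arrays.

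The genes named were the 8 genes, the 6 pathway symbols, FaPRE1 and, for each tested gene, the symbol-bearing feature nearest in its 3 ratios. The genes and lists were chosen with earlier results of these data known. The replicate number marks a shared array, and deviations of same-numbered samples correlated at 0.168, 0.179 and 0.135. Of the 8 names, 0 matched the reference gene table. Other signals, offsets, scalings and filters, and each array left out, were tried.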

Additional observations from a re-analysis of the deposited data

How the results depend on the processing

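Of the 7 tested genes, 6 kept their direction under all 13 alternatives. All of these reused the same 3 arrays, so a gene with the same sign on each array could hardly turn. FaFHT kept its direction although its ratio on array 2 was 0.20. FaANS, near zero, turned to -0.063 without replicate 3. With each replicate left out in turn (no dye term), the log2 difference was -0.49 to -0.07 for FaFHT, -0.84 to -0.27 for FaFLS, 0.74 to 1.13 for FaDFR1, 1.38 to 1.92 for FaDFR1C, -0.06 to 0.10 for FaANS, 0.31 to 0.45 for FaUFGT and -2.56 to -1.41 for Famalonyltransf. Without replicate 2 all FaPRE1-OX RNA was in Cy3, so group and dye coincide in that fit. It gave the largest differences in size for FaFHT, FaFLS, FaDFR1 and FaDFR1C, and the smallest for Famalonyltransf. All features called numbered 0 to 13945 in the fits with a replicate left out, and genes of the pathway 0 to 5. The highest counts came without replicate 3, on the 2 arrays that correlate most closely. There FaFLS, FaDFR1, FaDFR1C, FaUFGT and Famalonyltransf passed (limma adjusted p 0.0153, 6.19e-06, 1.89e-08, 0.00619 and 3.59e-11). Their SEs in that fit were nearly equal, at 0.081 to 0.085. Those p-values therefore reflect variance shared over all features more than each gene's own scatter. Against 0 features called with the dye term, 5294 were called without it and 4238 without the replicate block (samples not paired by array), with 2 of the 7 genes in each. These were FaDFR1 (0.98, and 0.91 without the block) and FaDFR1C (1.71, and 1.61 without the block). Processed signals gave 1428 features and 1 of the 7 genes, FaDFR1C at 1.79, and moved the dim FaFLS to -0.996 and FaUFGT to 1.09, neither called. An offset of 16 gave 922 features, median centring 1105 and scaling between arrays 412, with 0 of the 7 genes in each. The remaining alternatives, other than leaving out replicate 3, called 0 features. At an unadjusted p under 0.05, 43.6% of the features past it were higher as reported and 60% after median centring. Over all alternatives the adjusted p was 1.89e-08 to 0.126 for FaDFR1C, 6.19e-06 to 0.168 for FaDFR1, 0.00619 to 0.261 for FaUFGT, 0.0153 to 0.376 for FaFLS and 3.59e-11 to 0.326 for Famalonyltransf. Of 32 percentiles recomputed under other signals, 6 moved by more than the replicate SD, by 0.5 to 3.2 points. FaFLS and FaUFGT were within 4.01 times background in every sample, and Famyb10 could not be read.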

Other observations

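Among 29 other tested features with a symbol, the pattern nearest to FaUFGT over the 3 array ratios was that of FaLAR (Euclidean distance 0.15 in log2, but 1.08 from the processed signals), and to FaFHT that of FaQR, a quinone oxidoreductase symbol (0.36, with ratios of -0.63, -0.01 and -0.63). FaFLS was nearest to FaDof (0.36, and 0.84 from the processed signals) and FaANS to FaEF1 (0.33, and 0.55). FaDFR1 had no close symbol, with FaDVL1 at 0.99. FaDFR1C was nearest to FaPLB at 1.41, farther than to FaDFR1 itself (1.29). Famalonyltransf was nearest to FaGalur (0.95), whose ratios of -2.01, -1.94 and -0.74 were also smallest in size on array 3. Features within 0.25 of a gene's ratio on every array numbered 3304 (14.1% of those tested) for FaANS and 1133 (4.84%) for FaUFGT. They numbered 3 (0.0128%) for FaDFR1C, 15 (0.0641%) for Famalonyltransf, 31 (0.133%) for FaFLS, 37 (0.158%) for FaDFR1 and 63 (0.269%) for FaFHT. Fewer features lie in such a window the farther a ratio is from zero, so the counts largely follow the size of the ratios. These are descriptions over 3 arrays that share the same pairs of samples.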
